A study of Arachis hypogaea with 14 samples.

Results

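The well-matched cleavage sites of developing peanut seeds are the 545 combinations of small RNA, transcript and cleavage position, of 2497 in all, that the deposited degradome table lists with an alignment score of 2.5 or less. The score is the authors' penalty for the pairing of small RNA and transcript, from 0 for the best match to 4 in this table. The sites were selected on these scores, so the scores are given as a description and no test rests on them. The 545 sites joined 83 small RNA names, which held 73 different sequences, to 250 transcripts at 296 transcript positions. The seeds came from peanut (Arachis hypogaea) lines 8106, with medium pods, and 8107, with super-sized pods, both recombinant inbred lines of generation RIL8. Small RNAs were sequenced from whole seeds in 4 groups of 3 libraries, which were 8106 at 15 days after flowering (DAF), 8106 at 35 DAF, 8107 at 15 DAF and 8107 at 35 DAF. A further degradome library was made for each line from both stages, and the table does not say which line a site came from. The labels do not say whether replicates were separate plants, so a p-value here speaks only of the spread among these libraries, and that spread may be technical.

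Plant microRNAs (miRNAs) guide an Argonaute protein to a transcript that pairs with them along nearly their whole length, and the Argonaute cuts the transcript opposite the middle of the small RNA. The cut leaves a downstream fragment with a 5′ monophosphate, and degradome libraries capture such fragments by their 5′ ends. Many conserved miRNA families cut transcripts of transcription factors that set the timing of growth phases, organ shape and the response to auxin, and in legumes several families cut transcripts of NB-LRR disease resistance genes.

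The sequences below are those of the deposited small RNA table, written 5′ to 3′ with T for U, and capitals mark bases 2 to 8, the seed region of the small RNA. The start of a name gives the species whose known miRNA it resembles (mtr for Medicago truncatula, gma for soybean, ahy for peanut, lja for Lotus japonicus, lus for flax, ptc for poplar, vvi for grape). L and R with a sign give bases gained or lost at the 5′ and 3′ ends, a number before ss gives substitutions, and MIR with p5 or p3 marks an arm of a hairpin. The 73 sequences had 48 different seed regions, of which 17 were shared by at least 2 sequences. The first set holds the 6 small RNAs with a site at score 0.
mtr-miR1507-3p_R-3: cCTCGTTCcatacatcatc
mtr-miR156e: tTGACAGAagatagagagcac
mtr-miR159b: aTTGGAGTgaagggagctcca
mtr-miR164a_R-3: tGGAGAAGcagggcacgt
ahy-MIR3511-p5: tCGAGCCGccagggccatgaa
ahy-MIR3516-p5: aTATTGACagaagtgttcttc

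The next set holds forms of miR160 that differ at the 5′ end and so in the seed region. It also holds 2 sequences of miR171 whose 5′ ends are offset along the same target. Their listed positions differ by the same offset, because each cut is listed opposite base 10.
gma-miR160a-5p: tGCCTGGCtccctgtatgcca
ptc-miR160a_L+1: aTGCCTGGctccctgtatgcca
mtr-miR160a_L+2: cCTGCCTGgctccctgtatgcca
vvi-miR160c_L+3: cCATGCCTggctccctgtatgcca
gma-MIR171c-p3: tGATTGAGccgtgccaatatc
lja-miR171d-5p: tTGAGCCGcgccaatatcact

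The following sequences are shown because the results on levels turn on them. Those of miR319 share 1 seed region, as do those of miR164 and of miR393.
gma-miR319a_R+1: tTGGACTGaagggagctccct
gma-miR319f_R+1: tTGGACTGaaggggcctcttc
gma-miR156a: tGACAGAAgagagtgagcac
mtr-miR164a: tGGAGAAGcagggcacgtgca
mtr-miR164a_1ss21AG: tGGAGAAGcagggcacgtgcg
mtr-miR172d-3p_R+1: aGAATCTTgatgatgctgcag
mtr-miR393a_R+1_1: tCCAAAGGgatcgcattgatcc
mtr-miR393a_R+1_2: tCCAAAGGgatcgcattgatct
gma-miR171n_1ss20TC: tTGAGCCGcgtcaatatctca

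The last set pairs well-matched but rare sequences with abundant relatives whose sites at the same positions score above 2.5, and adds the repeat-like miR2673.
lus-miR159c_1ss6AT: tTTGGTTTgaagggagctctt
mtr-miR159a_1ss21AT: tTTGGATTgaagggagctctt
ahy-miR159: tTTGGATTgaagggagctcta
gma-miR482b-3p_R-4_1ss18AT: tCTTCCCTacacctccct
gma-miR482b-3p: tCTTCCCTacacctcccatacc
mtr-miR2673a_L+2_1ss23AT: tTCCTCTTcctcttcctcttcctc

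Where a miRNA family has a known target class, most of its well-matched sites fell in that class. For the families with a listed target class, 403 of 475 well-matched sites (84.8%) carried a symbol of that class, against 648 of 1251 (51.8%) above score 2.5. A sequence listed under several names counts under each, and counting each family and transcript position 1 time gave 181 of 238 (76.1%) against 275 of 747 (36.8%). Of 24 such families in the table, 16 had a well-matched site in their class. The table lists a combination 1 or 2 times without saying what a second line stands for, and 335 of 545 well-matched sites (61.5%) were listed 2 times against 798 of 1952 (40.9%) above the limit. Just inside the limit, at score 2.5, there were 113 sites, and 66 of the 87 with a listed class (75.9%) were in it. Just outside, at score 3, there were 504 sites, and 284 of 409 (69.4%) were in class.

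**Figure D1:**
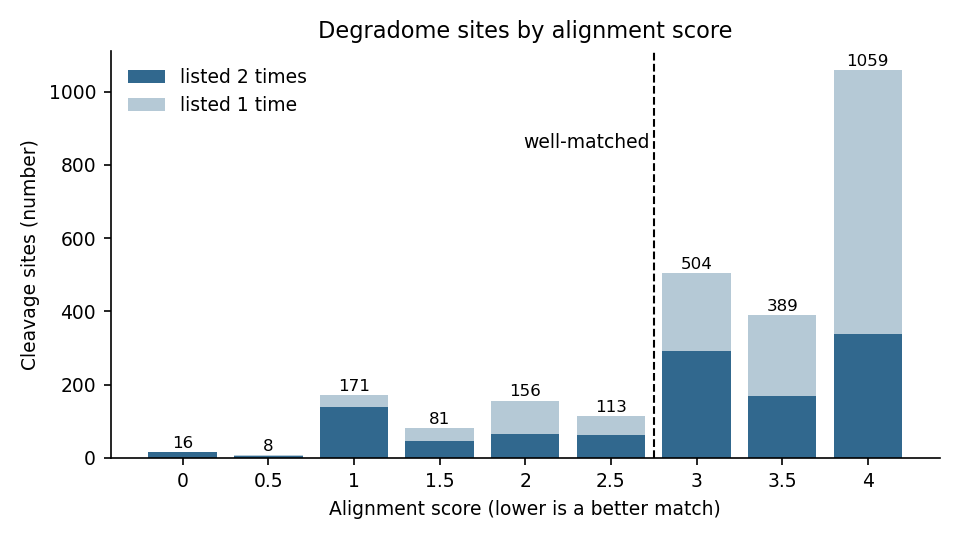
Number of cleavage sites (y axis) at each alignment score (x axis), split into sites that the degradome table lists 1 or 2 times. The dashed line marks the limit of 2.5, with 113 sites just inside and 504 just outside it.

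The listed cut lay opposite base 10 of the small RNA at 535 of the 545 sites (98.2%), against 74.4% above the limit. The base was counted in transcript bases from the range end facing the 5′ end of the small RNA, so an unequal range length can shift it. It lay opposite base 9 at 8 sites and base 11 at 2. The 2 at base 11 were those of gma-miR162a_R+1 on DCL1, the Dicer that makes most plant miRNAs. At 483 sites (88.6%) the listed transcript range was as long as the small RNA, and at all 483 the cut was opposite base 10. Above the limit 52.9% of sites had such a range, and 1021 of these 1033 were at base 10. The contrast of 98.2% and 74.4% thus lies in sites whose range differs in length, and it does not show a more precise cut. Among the well-matched sites with such a range, 107 pairs of sequences of 1 family lay at different, nearby positions of 1 transcript. In all 107 the positions differed by the offset of the 5′ ends. With every cut listed opposite base 10 this follows by arithmetic, so it is no separate result on cleavage. On the ARF17 transcript XM_016089130.1, gma-miR160a-5p was listed at position 1205, ptc-miR160a_L+1 at 1206 and mtr-miR160a_L+2 at 1207. On the SCL6 transcript XM_016095114.1, gma-MIR171c-p3 was listed at position 1205 and lja-miR171d-5p at 1202. Among the 35 transcripts with several positions, 34 had them within 3 bases of each other. The other was the ROS1 transcript XM_016095996.1, where ahy-MIR3511-p5 was listed at 2031 and ahy-MIR3516-p5 at 2315, which is 284 bases away. The table gives no read number at a position, so whether fragments ended at each listed base was not tested.

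Counted as combinations of name, transcript and position, the phase-change families held the most sites. By transcript position the order was closer, with 38 for miR156, 35 for miR1507 and 31 each for miR172 and miR160. The miR156 family, which restrains SPL transcription factors and with them the passage from juvenile to adult growth, had 136 sites on 29 transcripts, and 135 were SPL transcripts. Of these, SPL6 had 40, SPL12 32, SPL3 25, SPL13A 20, SPL18 10 and SPL9 8 sites. mtr-miR156e matched both SPL18 transcripts at score 0 at position 835, and gma-miR156a matched SPL3, SPL6, SPL9, SPL12 and SPL13A with 1 as its lowest score. The miR172 family, which acts on AP2-like factors of flowering and floral organs, had 66 sites, with 12 on AP2 and 30 on RAP2-7. Its other sites lay on ORP3C, an oxysterol-binding-like protein, with 8, and on PRH, with 16, the last all from sequences of the 5p arm.

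The next families act on auxin signalling and organ boundaries. The miR160 family had 57 sites, all on auxin response factors, of which ARF18 had 26, ARF17 16, ARF16 10 and ARF8 5. The lowest score was 0.5, on 2 of the 4 ARF17 transcripts. The 2 forms of mtr-miR393a_R+1 had 8 sites on TIR1 and 4 on AFB2, both auxin receptors. The miR164 family, whose NAC targets set organ boundaries, had 33 sites, 16 of them on NAC100 and 8 on NAC021. Its remaining sites lay on UXS6, a UDP-xylose synthase, with 5 and on a transcript without a symbol with 4. mtr-miR164a_R-3 matched all 4 NAC100 transcripts at score 0.

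Families of organ shape and meristems followed. The miR159 family, which acts on GAMYB-like factors of the gibberellin response, had 26 sites on GAM1 and 10 on transcripts without a symbol. The related miR319 family had 10 sites on TCP2 and 2 on TCP4, factors that limit cell division in leaves, all at score 2.5. The miR171 family had 16 sites on SCL6, a GRAS factor of shoot meristems. The miR166 family had 14 sites in its class, the HD-ZIP III factors of organ polarity (ATHB-15 6, REV 6, ATHB-14 2), none below score 2.5. The miR394 family had 10 sites, all on the F-box gene FBX6.

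NB-LRR disease resistance genes were another large class. The miR1507 family had 38 sites on 34 transcripts, with 24 on RPPL1, 7 on RGA3 and 4 on RGA2, and the other 3 on PRPF8, a splicing factor. Of these 38 sites, 33 belonged to gma-MIR1507b-p3_2ss2CT17GA, which had a mean of 15.4 normalized reads. mtr-miR1507-3p_R-3 matched RPPL1 at score 0. The miR482 family had 12 sites, 7 in this class. The miR1510 family had 6 on N, which are 3 positions of 1 sequence under 2 names. A predicted candidate outside the known families, PC-3p-231_14884, was listed on the RGA3 transcript XM_016113650.1 at position 877, where gma-MIR1507b-p3_2ss2CT17GA was also listed. Both sequences begin with the same 19 bases.

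The small RNA machinery and DNA demethylation were also among the targets. gma-miR162a_R+1 had 2 sites on DCL1, and miR1515 had 3 on DCL2B, a Dicer of the siRNA pathways. ahy-MIR3511-p5 matched ROS1 and DML2 at score 0, and ahy-MIR3516-p5 matched ROS1 at score 0. ROS1 and DML2 are DNA glycosylases that remove methylated cytosine in Arabidopsis. These hairpin arms have no target class in the list used here. mtr-miR395a_L-1 had 2 sites on APS1, an ATP sulfurylase of sulfate assimilation.

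**Figure D2:**
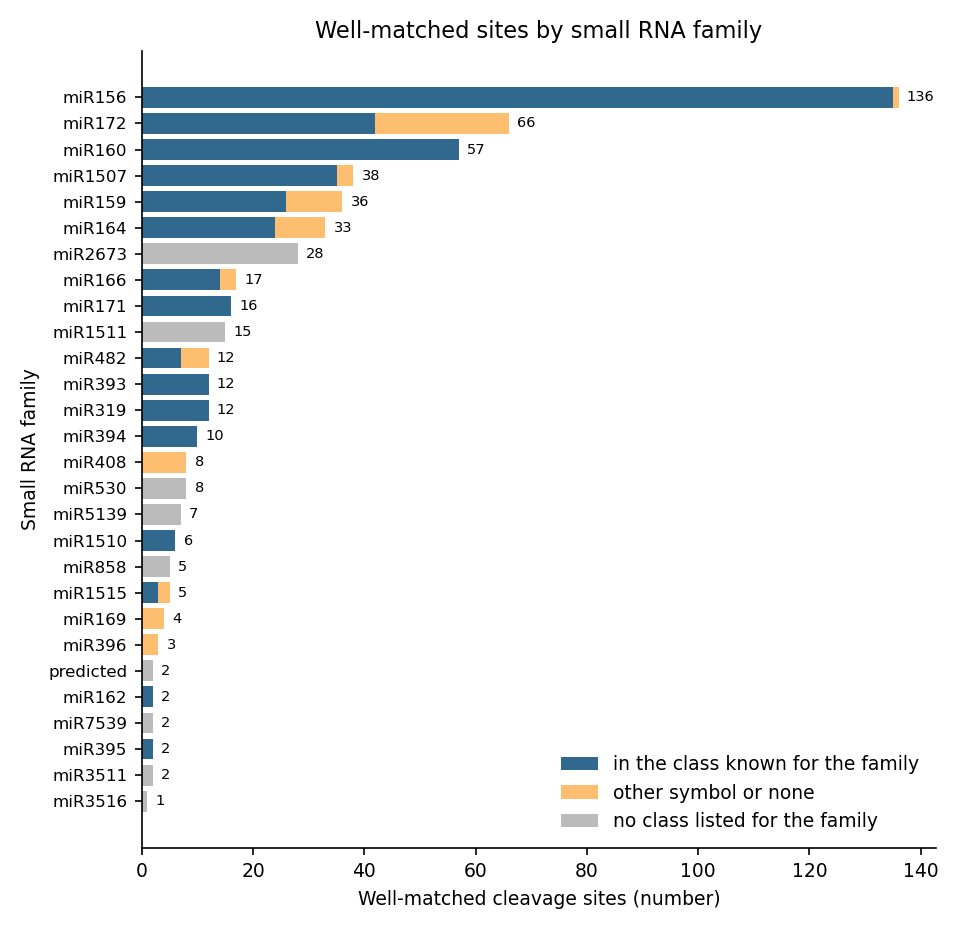
Number of well-matched sites (x axis) for each small RNA family (y axis), divided into sites whose symbol is in the class known for the family, sites with another symbol or none, and families with no class listed. The miR156 family leads with 136 sites, 135 of them in class.

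In 3 families with a listed class every well-matched site lay outside it. The 3 miR396 sites were on ACA12, a calcium ATPase, while all 178 sites of miR396 on growth-regulating factors scored 3 or more. The 4 miR169 sites were on BZIP9 and CBK1, and no site of this family at any score carried an NF-YA symbol. Of the 8 miR408 sites, 6 were on ARPN, a plantacyanin and so a blue copper protein that the list had not named. Counting it gave 409 sites in class. The 8 are 4 positions, 3 of them on ARPN, of 1 sequence under 2 names. Its mean was 1.80 normalized reads, and it was above 0 only in 8107 at 15 DAF. A further 5 families had no well-matched site, and the best in-class scores were 4 for miR167 on auxin response factors and 3 for miR168 on ARGONAUTE 1. mtr-miR2673a_L+2_1ss23AT, a repeat of TTCCTC, had 28 sites on 28 transcripts with unrelated symbols, among them SF3B2, taf11 and MPHOSPH10, and 4 of the 28 were listed 2 times. ppe-miR1511-3p_L+1R-4 and rgl-miR5139_L-1 are the same 18-base sequence under 2 family names and were listed on the same 7 transcripts of SNRNP200 and CG5931.

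Many of the well-matched small RNAs were rare. Levels are the authors' normalized reads, and a value of 0 in this table does not show absence. Of the 73 sequences, 21 had a mean of 100 or more over the 12 libraries, 11 of 1000 or more, and 29 a mean under 10. Counting each family's sites on a transcript position once gave 304 positions. At 118 of them (38.8%) every well-matched small RNA had a mean under 10, and at 113 at least 1 reached 100. At 42 of these 118 a relative above the score limit had a mean of 100 or more.

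The miR159 family shows this pattern. On 6 GAM1 transcripts the score was 0 for mtr-miR159b, which was listed at 0 in 7 of 12 libraries and reached 9.69, 30.4 and 7.21 in those of 8107 at 35 DAF. Its relative ahy-miR159, with a mean of 14390, was listed at the same positions with a score of 3.5. lus-miR159c_1ss6AT, with a mean of 1.42, was well matched on GAM1 and on transcripts without a symbol, where mtr-miR159a_1ss21AT, at 31999, scored above the limit. Likewise gma-miR482b-3p_R-4_1ss18AT, listed above 0 in 1 library, scored 2 where gma-miR482b-3p, with a mean of 158639, scored 3.5. The first 17 bases of those 2 sequences are identical. In miR164 the score of 0 on NAC100 belonged to mtr-miR164a_R-3 (mean 1.72), while mtr-miR164a (mean 5815), which is the same from base 1 to base 18 and 3 bases longer, scored 2.5. In miR156 and miR160 the best match was abundant, with means of 4152 for mtr-miR156e and 2818 for gma-miR160a-5p.

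**Figure D3:**
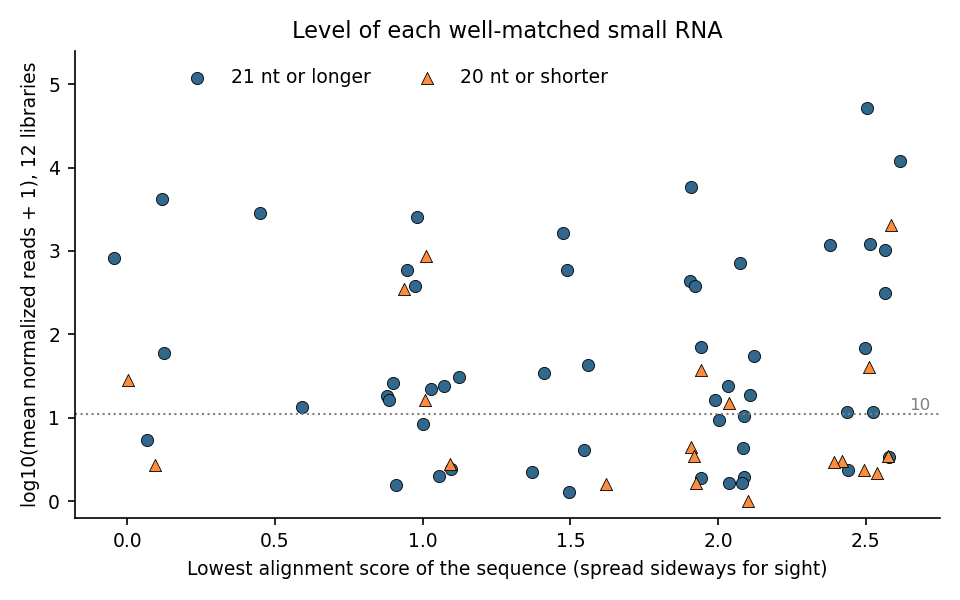
Mean level over 12 libraries as log10(normalized reads + 1) (y axis) against the lowest alignment score of each of the 73 sequences (x axis), with triangles for the 20 sequences of 20 bases or fewer. The dotted line marks a mean of 10, and 29 sequences lie below it at scores from 0 to 2.5.

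Short sequences stood apart in their libraries. Of the 20 sequences of 20 bases or fewer, 19 had their highest value in a library numbered 2, against 26 of the 53 longer ones. The share of normalized reads from sequences of 18 to 20 bases was 0.468 to 3.95% over the libraries, with the highest share of each group in its library numbered 2 and the highest group in 8107 at 35 DAF. The part of this in the levels of short sequences was not tested. Results below were therefore also computed without those 4 libraries.

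The levels did not enter the choice of sites and were compared with limma on log2(normalized reads + 1) over all 395 sequences of the table that reached 10 in at least 3 libraries, with Benjamini-Hochberg adjustment. Of the 73 sequences, 47 were tested and 26 were too low, the highest of their means being 4.43. The filter favours a difference in a sequence that met it only through 1 high group, so no count over the 47 is evidence about well-matched small RNAs as a class. Of the 47, 8 met the filter only through 1 group, among them mtr-miR393a_R+1_1, mtr-miR395a_L-1, mtr-miR2673a_L+2_1ss23AT and gma-MIR156e-p5_2ss16CT19CT_1, whose values are given as a description with no p-value. In 3 pairs of tested sequences all 12 values were equal, so the 47 hold 44 different profiles; mtr-miR393a_R+1_1 and mtr-miR393a_R+1_2, which share their first 21 bases, are 1 such pair. The comparisons share groups, so they are given side by side and not compared with each other as independent results.

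At 35 DAF the small RNAs of the DNA demethylases, the TCP factors and AP2-like factors were higher in 8107, and those of NAC factors were lower. Of the 47, 19 were higher and 12 lower in 8107, and 16 did not pass. Over all 395 tested, 52.4% passed, 32.2% higher and 20.3% lower. The median log2 difference was 0.18 over the 47 and 0.03 over the 395. The balance rests on the scaling, since 31 were higher and 3 lower at equal library totals, 13 against 15 under quantile scaling, and 15 against 17 after centring on the median. Those 3 scalings moved the median over all 395 to 1.01, -0.38 and -0.37.

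ahy-MIR3516-p5, listed on ROS1, stood at 2964, 3667 and 2658 normalized reads in 8107 at 35 DAF and at 6.46, 8.04 and 0 in 8106. The log2 difference was 9.56 ± 0.67 (SE; limma adjusted p = 7.83e-07). The groups did not overlap, and 1 library of 8106 was at 0. ahy-MIR3511-p5, listed on ROS1 and DML2, stood at 154, 210.4 and 136 in 8107 and at 5.65, 11.4 and 0 in 8106, a log2 difference of 5.24 ± 1.05 (limma adjusted p = 0.00196).

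The miR319 forms showed the same order of lines. gma-miR319a_R+1, listed on TCP2, stood at 1929.8, 3222 and 1784 in 8107 and at 34.7, 72.3 and 44.1 in 8106 at 35 DAF, a log2 difference of 5.51 ± 0.30 (limma adjusted p = 1.41e-07). gma-miR319f_R+1, listed on TCP4, stood at 727, 1121 and 678 against 87.7, 144 and 78.6, a difference of 3.03 ± 0.27 (limma adjusted p = 5.22e-06). In both, all libraries of 8107 were above all of 8106. gma-miR156a, listed on 5 SPL genes, stood at 755, 1239 and 624 against 74.8, 177 and 55.3, a difference of 3.20 ± 0.44 (limma adjusted p = 0.000149). The other abundant miR156 form, mtr-miR156e, did not pass at -0.41 ± 0.22 (limma adjusted p = 0.148), and it was higher in 8107 at equal totals, at 0.65. Of the 6 tested miR156 sequences 2 were higher, 1 was lower and 3 did not pass. The lower one, gma-MIR156e-p5_2ss16CT19CT_1, is a hairpin arm listed on KN, and it met the filter only through 8106 at 35 DAF.

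All 5 tested miR172 sequences were higher in 8107 at 35 DAF, a pair of them with equal values. Of these, mtr-miR172d-5p_L-3 was listed only on PRH and not on an AP2-like factor. mtr-miR172b_R+1 met the filter neither without 8107 at 35 DAF nor without 8106 at 15 DAF, so it counts only as a description. Its call was lost in 5 of the 12 fits that left out a library, and that of the mtr-miR172d-3p_R+2 pair in 1. mtr-miR172d-3p_R+1, listed on AP2, RAP2-7 and ORP3C, stood at 2699, 3319.5 and 2477 in 8107 and at 880.1, 1068 and 890.5 in 8106, a log2 difference of 1.58 ± 0.14 (limma adjusted p = 6.91e-06). The groups did not overlap, and the difference was between 0.97 and 2.63 under the scalings tried. mtr-miR393a_R+1_1, listed on TIR1 and AFB2, stood at 45.5, 39.8 and 39.3 against 12.9, 9.71 and 6.10. All 3 libraries of 8107 were above those of 8106, but it met the filter only through that group.

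The miR164 sequences were the lowest in 8107 relative to 8106, and all 3 tested were lower. mtr-miR164a, listed on NAC100 and NAC021, stood at 1149.5, 1326 and 896 in 8107 and at 5461, 7178 and 4375 in 8106 at 35 DAF. The log2 difference was -2.32 ± 0.22 (limma adjusted p = 8.25e-06), and -1.27 at equal library totals, with no overlap between groups. mtr-miR164a_1ss21AG stood at 4.47, 5.82 and 0 against 27.9, 33.5 and 17.6, a difference of -2.99 ± 0.62 (limma adjusted p = 0.00244).

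mtr-miR159b_R-1_1ss7GT, a sequence of 20 bases listed on GAM1, stood at 39.5, 100.3 and 40.9 in 8107 and at 0, 4.69 and 0 in 8106, a log2 difference of 4.96 ± 0.67 (limma adjusted p = 0.000122). Both groups were highest in the library numbered 2, and they did not overlap. The abundant miR159 relatives above the score limit did not share this difference at 35 DAF. ahy-miR159 had means of 15140 in 8107 and 13744 in 8106, and mtr-miR159a_1ss21AT 26939 in 8107 and 37878 in 8106.

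For miR171 the sign depended on the sequence. gma-MIR171c-p3, at score 1 on SCL6, was higher in 8107 with 659, 778 and 574 against 136, 154 and 124, a log2 difference of 2.27 ± 0.14 (limma adjusted p = 3.64e-07). gma-miR171n_1ss20TC, at score 2.5 on the same transcripts, was lower with 533, 599 and 418 against 1345, 1837 and 1166, a difference of -1.47 ± 0.20 (limma adjusted p = 0.00012). That difference was -0.42 at equal library totals and did not pass there. Lower calls near the median were those that turned with the scaling. gma-miR160a-5p, listed on 4 ARF genes, differed by -0.98 ± 0.21 (limma adjusted p = 0.00253) and by 0.074 at equal totals. mtr-miR1507-3p_L+1R-1, listed on RPPL1, differed by -1.0 ± 0.09 (limma adjusted p = 6.72e-06) and by 0.051. mtr-miR166a, listed on ATHB-15 and the most abundant of the 73, differed by -0.47 ± 0.14 (limma adjusted p = 0.0174) and by 0.58. Its call was also lost without 8107 replicate 1 or without replicate 3 at 35 DAF. The predicted PC-3p-231_14884, listed on RGA3, was higher in 8107, with 2427, 2026 and 2427 against 855, 668 and 903. Over the 12 fits that left out a library the log2 difference was 1.38 to 1.60 (limma adjusted p up to 8.56e-05).

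**Figure D4:**
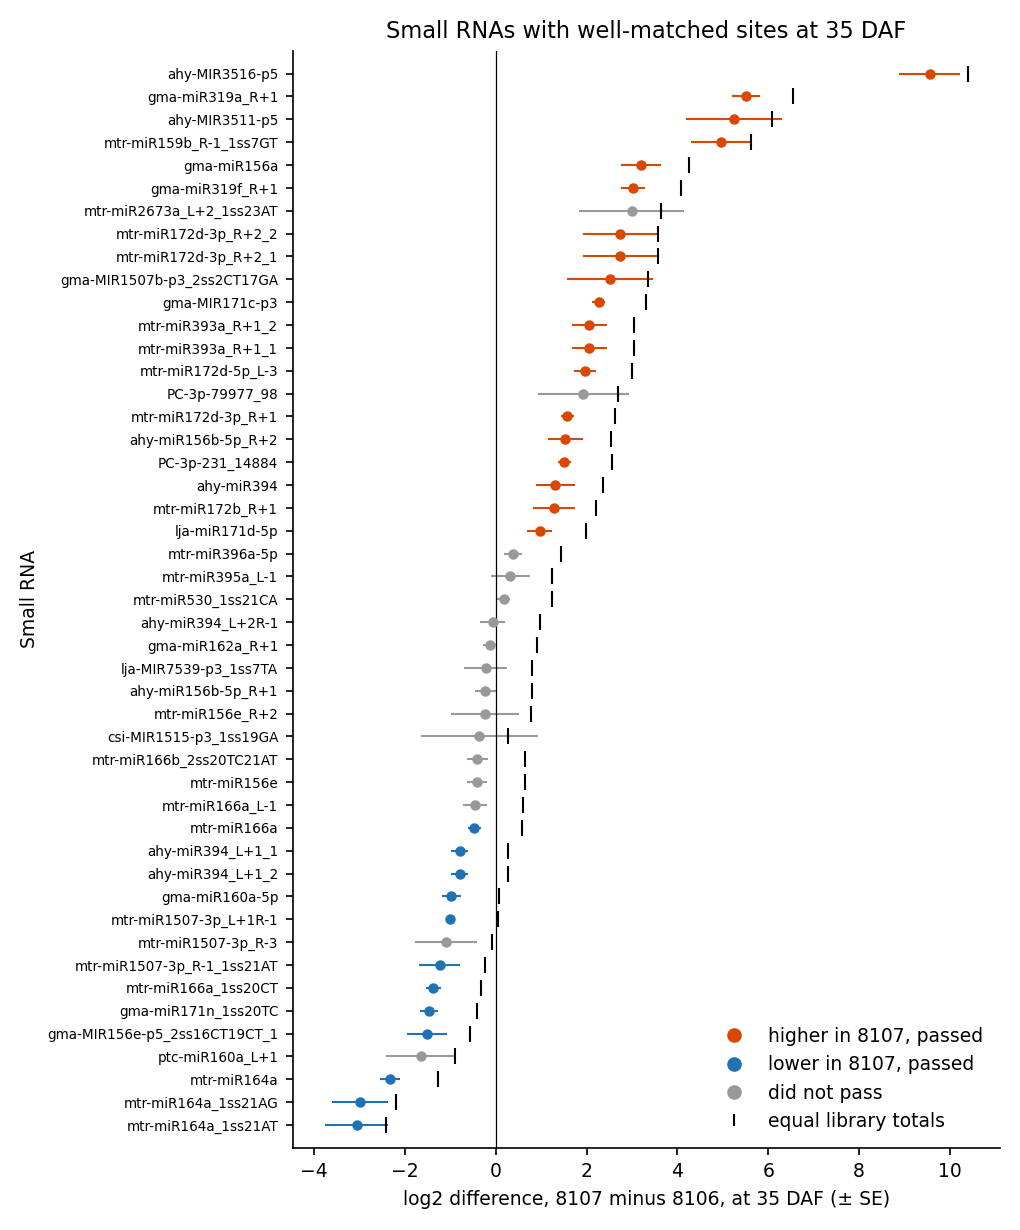
Log2 difference between 8107 and 8106 at 35 DAF (x axis, circles with SE) for the 47 tested sequences (y axis), coloured by the limma call, with a tick for the value at equal library totals. The ticks lie to the right of the circles, and ahy-MIR3516-p5 is at the top with 9.56.

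Counted by target position, using the most abundant well-matched small RNA at each, 111 of 304 positions had a small RNA that was higher in 8107 at 35 DAF and 31 one that was lower. A further 75 had one that did not pass and 87 one too low to test. Over all 395 tested sequences 32.2% were higher and 20.3% lower, which are shares of sequences and not of positions. gma-MIR1507b-p3_2ss2CT17GA held 33 of the 111. It met the filter only through 8107 at 35 DAF, and its call was lost in 11 of the 12 fits that left out a library. The mtr-miR393a_R+1 pair, with 6 positions, also met the filter only through that group. Positions on splice forms of 1 gene share their small RNA, so these are not independent.

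At 15 DAF fewer small RNAs differed, and nearly all those that passed were higher in 8107. Of the 47, 10 were higher and 1 was lower. Over all 395, 22.5% passed, 15.7% higher and 6.84% lower. The split was 7 to 2 with quantile scaling and 2 to 2 after centring on the median. gma-miR319a_R+1 stood at 1287, 1603 and 1380.5 in 8107 against 239, 393 and 305 in 8106, a log2 difference of 2.21 ± 0.30 (limma adjusted p = 0.000593). gma-miR319f_R+1 stood at 245, 268 and 242 against 39.0, 58.9 and 55.0, a difference of 2.30 ± 0.27 (limma adjusted p = 0.000157). These 2 calls held in all 12 fits that left out a library and under every scaling tried.

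ahy-MIR3516-p5 was higher by 2.12 ± 0.67 at 15 DAF (limma adjusted p = 0.0451), with 126, 163 and 148 against 37.2, 36.7 and 25.2. Over the 12 fits that left out a library the difference stayed between 1.94 and 2.22, and the call was lost in 9, all but those without a library of 8106 at 35 DAF, with a limma adjusted p of up to 0.138. ahy-MIR3511-p5 differed by 3.42 ± 1.05 (limma adjusted p = 0.0406), with 44.6, 61.6 and 62.8 against 0, 12.5 and 10.1, and its call was also lost in 9 of those fits, all but those without 8106 replicate 2 of either stage or replicate 3 at 35 DAF. Both calls were lost as well without the 4 libraries numbered 2, at 2.12 and 4.02. The 1 lower sequence was mtr-miR395a_L-1, listed on APS1, with 5.22, 13.7 and 4.43 in 8107 against 27.9, 36.4 and 35.7 in 8106, the group through which it met the filter. Its more abundant relative above the score limit, mtr-miR395a_L+1R-1_1ss21TC, had means of 215 in 8107 and 207 in 8106 at 15 DAF. The miR164, miR172 and miR393 sequences did not pass at 15 DAF; mtr-miR164a differed by 0.02 ± 0.22 (limma adjusted p = 1).

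Within 8106, from 15 to 35 DAF, 3 of 6 tested miR156 sequences rose and none fell, 4 of 5 miR172 sequences fell, and gma-miR319a_R+1 and ahy-MIR3516-p5 fell. In the mtr-miR172d-3p_R+2 pair, which is 2 of those 4, the call was lost in 9 of the 12 fits that left out a library (limma adjusted p up to 0.11). Of the 3 miR156 sequences, ahy-miR156b-5p_R+2 was at 0 in all libraries at 15 DAF. It met the filter only through 35 DAF, so it counts only as a description. Of the 47, 9 rose and 10 fell, against 13.2% and 23% of the 395 and 36.2% in either direction. At equal library totals 2 rose and 15 fell, and with quantile scaling 12 rose and 8 fell. mtr-miR156e stood at 1266, 1724 and 1511 at 15 DAF and at 7149, 10512 and 5767 at 35 DAF, a log2 difference of 2.35 ± 0.22 (limma adjusted p = 1.18e-05). mtr-miR172d-3p_R+1 fell from 2879.9, 3266 and 3304 to 880.1, 1068 and 890.5, a difference of -1.74 ± 0.14 (limma adjusted p = 4.95e-06). In both, the stages did not overlap. gma-miR319a_R+1 changed by -2.65 ± 0.30 (limma adjusted p = 5.38e-05) and ahy-MIR3516-p5 by -3.04 ± 0.67 (limma adjusted p = 0.00457). mtr-miR395a_L-1 stood at 4.44, 8.71 and 6.10 at 35 DAF, below its 3 libraries at 15 DAF, the group through which it met the filter. gma-MIR171c-p3 fell by 2.00 ± 0.14 on the log2 scale (limma adjusted p = 1.67e-06).

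Within 8107, 5 of 6 tested miR156 sequences and ahy-MIR3516-p5 rose, and all 3 tested miR164 sequences fell. Of the 47, 14 rose and 11 fell, against 23% and 23.3% of the 395 and 46.3% in either direction. At equal totals 18 rose and 7 fell, and after centring on the median 14 rose and 7 fell. Among the miR156 sequences, gma-miR156a lost its call in 4 of the 12 fits that left out a library (limma adjusted p up to 0.0866), those without 8107 replicate 1 or 3 at 15 DAF or replicate 1 or 2 at 35 DAF, and mtr-miR156e_R+2 lost it in 1. mtr-miR156e stood at 1326, 1639 and 1640.4 at 15 DAF and at 5503, 6829.8 and 4961 at 35 DAF, a log2 difference of 1.90 ± 0.22 (limma adjusted p = 6.75e-05). ahy-miR156b-5p_R+2, listed on SPL18, was listed at 0 in all 6 libraries at 15 DAF. At 35 DAF it stood at 47.7, 41.2 and 65.7 in 8107 and at 20.2, 10.05 and 23.0 in 8106. It is counted among the miR156 sequences that rose in each line. The filter was met only through 35 DAF, which favours a rise, so its values are given as a description. ahy-MIR3516-p5 rose by 4.39 ± 0.67 (limma adjusted p = 0.000441). mtr-miR393a_R+1_1 stood at 3.32, 5.48 and 3.22 at 15 DAF, below its 3 libraries at 35 DAF, the group through which it met the filter.

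mtr-miR164a fell from 6817, 10019 and 8146 to 1149.5, 1326 and 896 in 8107, a log2 difference of -2.89 ± 0.22 (limma adjusted p = 3.87e-06). gma-miR160a-5p changed by -1.50 ± 0.21 (limma adjusted p = 0.000207) and gma-miR171n_1ss20TC by -1.76 ± 0.20 (limma adjusted p = 5.58e-05). mtr-miR2673a_L+2_1ss23AT was at 0 in the 3 libraries at 15 DAF and at 32.8, 11.6 and 20.8 at 35 DAF, the group through which it met the filter. In 8106 it was above 0 in 1 library of each stage.

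The stage change itself differed between the lines for 25 of the 47, with 12 higher and 13 lower in 8107, against 22.3% and 18.7% of the 395 and 41% in either direction. At equal library totals the split was 22 to 3, and with quantile scaling 8 to 14. The change was more positive in 8107 for ahy-MIR3516-p5 by 7.44 ± 0.95 on the log2 scale (limma adjusted p = 0.000184), for gma-miR319a_R+1 by 3.30 ± 0.43 (limma adjusted p = 0.000193) and for mtr-miR172d-3p_R+1 by 1.57 ± 0.20 (limma adjusted p = 0.000193). It was more negative for mtr-miR164a by -2.35 ± 0.31 (limma adjusted p = 0.000194). The test did not pass for ahy-MIR3511-p5 at 1.82 ± 1.49 (limma adjusted p = 0.345), for gma-miR156a at 1.51 ± 0.63 (limma adjusted p = 0.0773) or for mtr-miR156e at -0.44 ± 0.31 (limma adjusted p = 0.275). mtr-miR156e rose in both lines, and a difference between its changes was not shown.

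**Figure D5:**
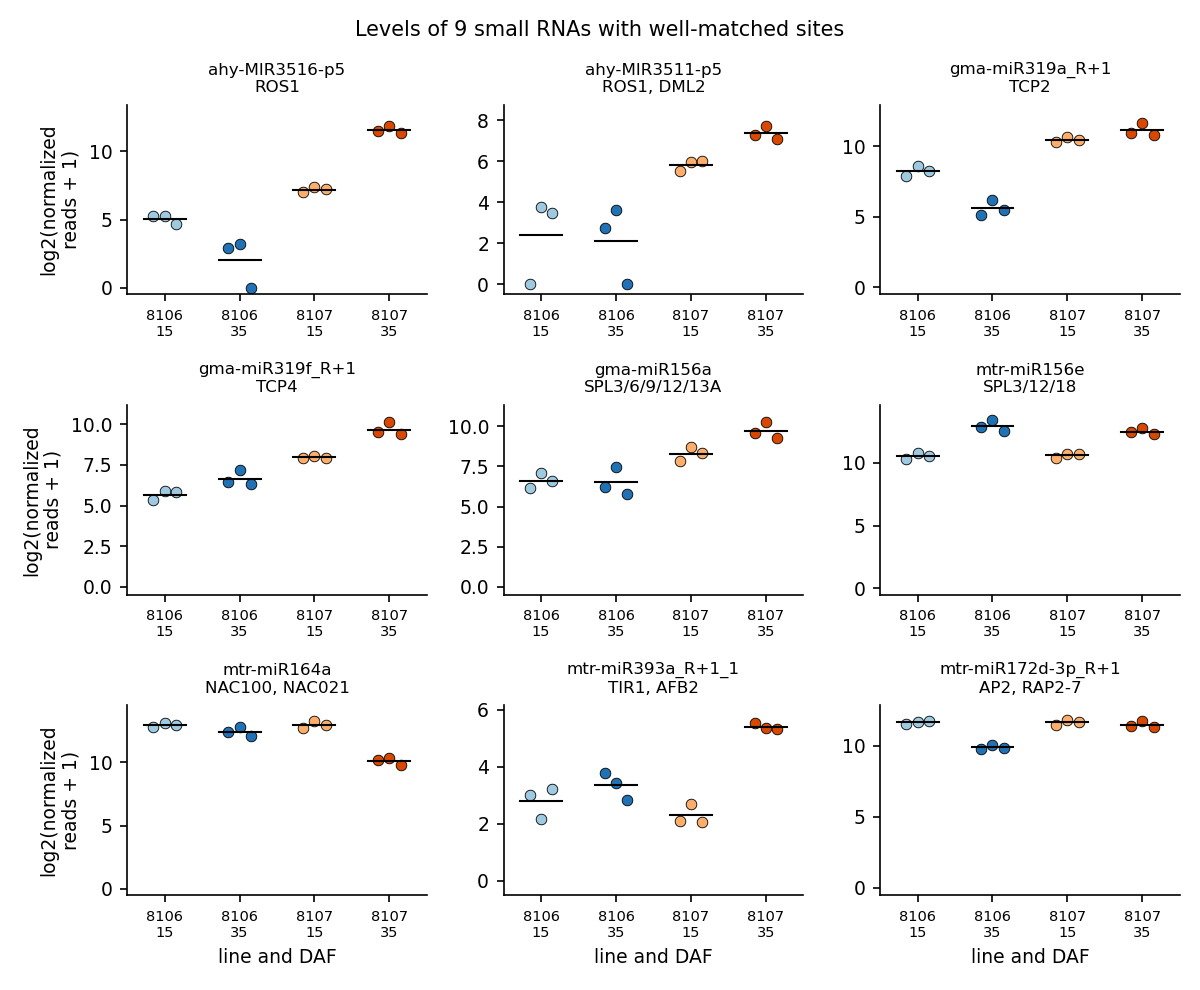
Levels of 9 small RNAs with well-matched sites as log2(normalized reads + 1) (y axis) in each of the 12 libraries (points) by line and DAF (x axis), with target symbols under each name and bars for group means of the log2 values. ahy-MIR3516-p5 falls from 15 to 35 DAF in 8106 and rises in 8107, while mtr-miR156e rises in both lines.

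In whole seeds a lower level per library cannot be told apart from fewer cells that make a small RNA. The degradome table carries no value per line, stage or library, so no level here was set against a difference in cleavage.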

How the data were processed

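Small RNA levels came from the authors' table of normalized reads, a signal per library marked as normalized per the file headers. The normalization method, the counting and the tool that paired degradome fragments with small RNAs are not given in the sources used here, and the submitters' processing notes name Bowtie. Values of 1 of the 12 columns were recorded under unit other, because a second block of the deposited file is shifted by a column and puts text there. Alignment scores and cleavage positions, the latter also unit other, were used as the authors deposited them, per the file headers. Totals over listed entries were 464658 to 1086382 normalized reads, and 36.0 to 54.5% of entries were at 0 in a library, so low levels are imprecise.

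Lines of the degradome table were reduced to unique small RNA, transcript and position. Sequences at 10 or more in at least 3 of 12 libraries were fitted with limma 3.58.1 (R 4.3.3, trend) on log2(value + 1), which understates changes of low entries, with 4 group means and calls at a Benjamini-Hochberg adjusted p under 0.05. The test was checked on simulated data. The target classes are a hand-made list of textbook families and symbols, in which any ARF counts for miR160. Named small RNAs were the 10 most abundant and, per comparison, up to 5 highest and 5 lowest that passed; others were named after their values were seen. The members and lists were chosen with earlier results of these data known. Alternatives were other pseudocounts, filters, scalings, fits, score limits and left-out libraries, and voom on reads recovered by dividing each library by the step its values share. Leaving out the 4 libraries numbered 2 and counting ARPN in its class were chosen after seeing the data. Transcript identifiers and symbols are the table's own; none of the 250 transcripts matched the reference gene table, so no genome position is given.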

Additional observations from a re-analysis of the deposited data

Results flagged for a closer look

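The stage change from 15 to 35 DAF differed between the lines, by the limma test of that difference, for 10 named small RNAs with well-matched sites. The difference of the log2 changes, 8107 minus 8106, was 7.44 for ahy-MIR3516-p5 (ROS1), 3.30 for gma-miR319a_R+1 (TCP2) and 2.43 for mtr-miR395a_L-1 (APS1). It was 2.56 for mtr-miR393a_R+1_1 and 2.56 for mtr-miR393a_R+1_2 (TIR1 and AFB2), which have equal values in every library and count as 1 measurement. The mtr-miR393a_R+1 pair met the filter on low values only through 8107 at 35 DAF and mtr-miR395a_L-1 only through 8106 at 15 DAF. The filter thus favoured a difference in these 3, and they are given as a description. It was -2.35 for mtr-miR164a, -2.57 for mtr-miR164a_1ss21AG and -3.17 for mtr-miR164a_1ss21AT (NAC100 and NAC021), -2.02 for gma-miR171n_1ss20TC (SCL6) and -2.76 for mtr-miR1507-3p_R-3 (RPPL1).

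The calls for mtr-miR164a_1ss21AT, mtr-miR164a_1ss21AG and mtr-miR1507-3p_R-3 were lost in 5, 7 and 7 of the 12 fits that left out a library, where the differences stayed negative. The 3 also did not pass at equal library totals. With quantile scaling mtr-miR395a_L-1 and the mtr-miR393a_R+1 pair did not pass, at 2.35 and 2.12.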

How the results depend on the processing

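Of 2073 alternative values for 88 named differences, 1812 kept their direction and side of the threshold, 164 lost the call, 48 gained it and 49 changed sign. Of the sign changes, 20 had a call before or after, all from scaling or voom with quality weights on recovered reads. The other 29 had no call either way, and 10 of these came from leaving out a library. The cause was not tested. For the line difference at 35 DAF, equal library totals gave 0.074 for gma-miR160a-5p, 0.051 for mtr-miR1507-3p_L+1R-1, 0.65 for mtr-miR156e, 0.58 for mtr-miR166a and 0.60 for mtr-miR166a_L-1. There voom gave 0.13, 0.10, 0.69, 0.62 and 0.71 in the same order, and quantile scaling gave 0.63 for mtr-miR166a. For that at 15 DAF, quantile scaling gave -0.24 for mtr-miR1507-3p_L+1R-1, -0.26 for mtr-miR156e and -0.29 for mtr-miR172d-3p_R+1. Centring on the median gave -0.063, -0.20 and -0.24 for these and -0.22 for mtr-miR164a. Without the 4 libraries numbered 2, mtr-miR164a had -0.035 and mtr-miR172d-3p_R+1 -0.051. Leaving out 1 library gave -0.079 to 0.14 for mtr-miR156e, -0.12 to 0.16 for mtr-miR164a and -0.078 to 0.11 for mtr-miR172d-3p_R+1.

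For the stage change in 8106, voom gave -0.38 for gma-miR171n_1ss20TC, -0.11 for mtr-miR166a and -0.41 for mtr-miR166a_L-1, and equal totals gave -0.35, -0.061 and -0.23. Quantile scaling gave -0.096 for mtr-miR166a_L-1 and 0.11 for PC-3p-231_14884, and centring gave 0.051 for PC-3p-231_14884 and 0.19 for mtr-miR1507-3p_L+1R-1. Leaving out 1 library gave -0.069 to 0.0093 for mtr-miR1507-3p_L+1R-1. In 8107 quantile scaling gave 0.45 for mtr-miR166a, and mtr-miR172d-3p_R+1 had 0.17 at equal totals and 0.12 with voom. For the difference of the stage changes, mtr-miR156e had 0.49 at equal totals, 0.055 with quantile scaling and 0.50 with voom, and mtr-miR166a had 0.0090, 0.28 and 0.034.

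At 15 DAF, 89 entries were called in all and 11 of the 47, against 165 and 20 with voom, and 4 of the 47 after centring on the median. Leaving out a library gave 42 to 112 and 4 to 14. The counts were 42 and 4 without 8106 replicate 1, 47 and 5 without 8106 replicate 3, 51 and 5 without 8107 replicate 2, and 52 and 5 without 8107 replicate 3. At 35 DAF, 207 and 31 became 134 and 20 with a filter of 50, and 137 and 20 with only the libraries compared. In 8106, 19 of the 47 became 12 with only those libraries. In 8107, 183 and 25 became 118 and 15 with the filter of 50. The cause was not tested, though both settings test fewer entries or use fewer libraries. Without the 4 libraries numbered 2, 13 were higher and 2 lower at 15 DAF, and 19 and 10 at 35 DAF. A score limit of 3 gave 1049 sites, 687 in class. Unique transcript and position gave 296 and 181, and 335 sites were listed 2 times.

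With the replicate number as a block, 145 entries and 20 of the 47 were called at 15 DAF. The deviations of same-numbered libraries of different groups correlated at 0.039 to 0.677 (median 0.300), against a median of -0.230 for different numbers, and 8 of 12 libraries were closest to one of their own number. That is a hint of pairing from the data, not the design, since the labels give the numbers no meaning and not every pair was above 0.1. The deviations were taken from group means, which ties the medians to each other. The negative median therefore adds no separate support. Levels under 10 are limited by depth.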
